A study of Mus musculus with 4 samples.

Results

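Lungs of adult and newborn mice kept in room air were compared for their microRNAs (miRNAs), with 1 library per age. The measurement was quantitative PCR with TaqMan assays on a pair of 384-well cards, and the series was designed to examine miRNA levels in lung development and in hyperoxia. The compared miRNAs were all assays with a threshold cycle (Ct, the PCR cycle at which the signal crosses the threshold) of at most 30 in both room air libraries. They numbered 368 of 750 miRNA assays, 214 on card 1 and 154 on card 2. The 24 wells L01 to L24, which are row L of card 1 and hold 23 miRNA assays, were left out. By assay annotation, 330 of the 368 miRNAs were named for mouse, 37 for rat and 1 for human. Outside that row, a further 34 assays were at or below the limit in the neonatal library alone, 25 in the adult library alone, and 300 in neither.

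The neonatal room air library was from mice 3 days old, which had entered the exposure within their first day, and the adult room air library was from mice 2 months old. Both stayed in room air for 72 h, and the labels name no strain, sex, transgene or other treatment of either group. The remaining 2 libraries came from newborns and adults held for 72 h in 95% oxygen and are used here only as a second pair of ages. The nursing dams were moved between both atmospheres every 24 h. Before the right lung was taken, the pulmonary artery was flushed with saline, under anaesthesia in every group. How many animals went into each library is not stated in the labels. With 1 library a side the differences below have no test, and only control RNAs and repeated assays show the measurement error.

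A miRNA is cut from a hairpin precursor and guides repression of mRNAs that pair with its seed, the bases at positions 2 to 8. One primary transcript often carries several hairpins, and many hairpins lie in introns or noncoding transcripts whose promoter they share. The newborn mouse lung at this age has yet to form most of its alveoli, with active cell division and matrix deposition, while the adult lung is largely quiescent.

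The sequences of the miRNAs on which the comparison turns are shown here, from RefSeq (GRCm38.p6), 5′ to 3′. The miR-29 family, whose members repress collagens and other matrix genes, held the largest group difference towards the adult, and capitals mark the shared seed:
miR-29a: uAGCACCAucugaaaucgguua
miR-29b: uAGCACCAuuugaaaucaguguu
miR-29c: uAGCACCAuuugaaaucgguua
A pair with another shared seed differed in opposite directions, miR-125b-5p higher and miR-351 lower in the adult library:
miR-125b-5p: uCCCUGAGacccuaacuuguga
miR-351: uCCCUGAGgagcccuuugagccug
The most abundant assay of card 1, the endothelial miR-126-3p, differed little between the ages:
miR-126-3p: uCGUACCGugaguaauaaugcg

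The precursor hairpins below give the loci at both ends of the comparison, with the annotated arms in capitals. Mir29c lies at chr1:195037547-195037634 (plus strand), Mir29a at chr6:31062660-31062747 (minus strand) and Mir22 at chr11:75463716-75463810 (plus strand). Their mature products were higher in the adult library.
Mir29c: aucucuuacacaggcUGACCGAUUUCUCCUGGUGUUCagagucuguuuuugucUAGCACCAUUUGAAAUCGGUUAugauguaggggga
Mir29a: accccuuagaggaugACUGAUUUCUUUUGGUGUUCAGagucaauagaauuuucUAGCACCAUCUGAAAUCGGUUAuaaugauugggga
Mir22: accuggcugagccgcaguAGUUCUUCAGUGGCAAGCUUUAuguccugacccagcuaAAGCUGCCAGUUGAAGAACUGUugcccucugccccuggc
Mir335, in the imprinted gene Mest, lies at chr6:30741299-30741396 (plus strand). From the imprinted Dlk1-Dio3 region come Mir431 at chr12:109590447-109590537, Mir433 at chr12:109591715-109591838 and Mir379 at chr12:109709060-109709125, all on the plus strand. Their products were higher in the neonatal library.
Mir335: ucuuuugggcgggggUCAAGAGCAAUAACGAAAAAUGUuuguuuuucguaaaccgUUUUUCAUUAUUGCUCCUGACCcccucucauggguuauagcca
Mir431: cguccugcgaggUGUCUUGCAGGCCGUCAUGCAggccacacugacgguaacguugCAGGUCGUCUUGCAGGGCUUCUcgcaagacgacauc
Mir433: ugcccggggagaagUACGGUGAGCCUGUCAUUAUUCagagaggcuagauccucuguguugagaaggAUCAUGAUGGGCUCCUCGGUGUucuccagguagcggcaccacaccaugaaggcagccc
Mir379: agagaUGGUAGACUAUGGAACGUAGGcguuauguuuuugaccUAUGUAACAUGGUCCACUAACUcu

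More RNA gives an earlier Ct, in log2 steps, so a level is given here as the Ct of snoRNA202, a small nucleolar RNA, on the same card minus the Ct of the assay. A difference is the adult level minus the neonatal level, in log2 units, and 1 unit is 2-fold only at perfect amplification. Among the 368 miRNAs the median Ct was 22.7 in the neonatal and 22.9 in the adult library. The only repeats were 4 control RNAs present on both cards (U6, snoRNA135, U87 and Y1), which gave a technical SD of 0.65 for a difference, or 0.42 without U6. The control RNAs also differed between ages: against snoRNA202, U6 was at -2.65 on card 1 and -1.12 on card 2, snoRNA135 at -0.86 and -0.35, U87 at 0.43 and 0.06, and Y1 at 1.35 and 2.15. The size of the general shift between the ages therefore depends on the reference RNA. Every difference below is against snoRNA202 unless said otherwise, and ranks within a card need no reference. The endothelial miR-126, epithelial miR-200 and smooth muscle miR-143 and miR-145 markers were present at both ages. The liver marker miR-122, from a tissue that was not sampled, had a Ct of 36.0 in neonatal and 32.8 in adult room air. In hyperoxia its Ct was 27.6 in the neonatal and 28.3 in the adult library, both inside the Ct limit. In a whole lung, fewer cells of a type and less RNA per cell cannot be told apart.

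Of the 368 miRNAs, 56 (15.2%) exceeded the neonatal level by 2-fold or more in the adult library, 153 (41.6%) lay below it by as much, and 159 lay within 2-fold. A miRNA called higher or lower below is beyond 2-fold in the adult library. Differences of at least 4-fold numbered 16 (4.35%) higher and 82 (22.3%) lower. The median was -0.57, at -0.38 on card 1 and -0.94 on card 2. Relative to the median difference of each card, 101 (27.4%) were higher and 101 (27.4%) lower, and at 4-fold there were 34 (9.24%) higher and 63 (17.1%) lower. The split also turned with the reference: U6 gave 215 higher and 60 lower, and centring each library on its mean gave 121 and 87. Under each of 7 references, 53 miRNAs kept a 2-fold excess in the adult and 56 in the neonate, and miR-29a, miR-29b, miR-29c, miR-22, miR-222, miR-489 and miR-21 were among the 53.

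**Figure D1:**
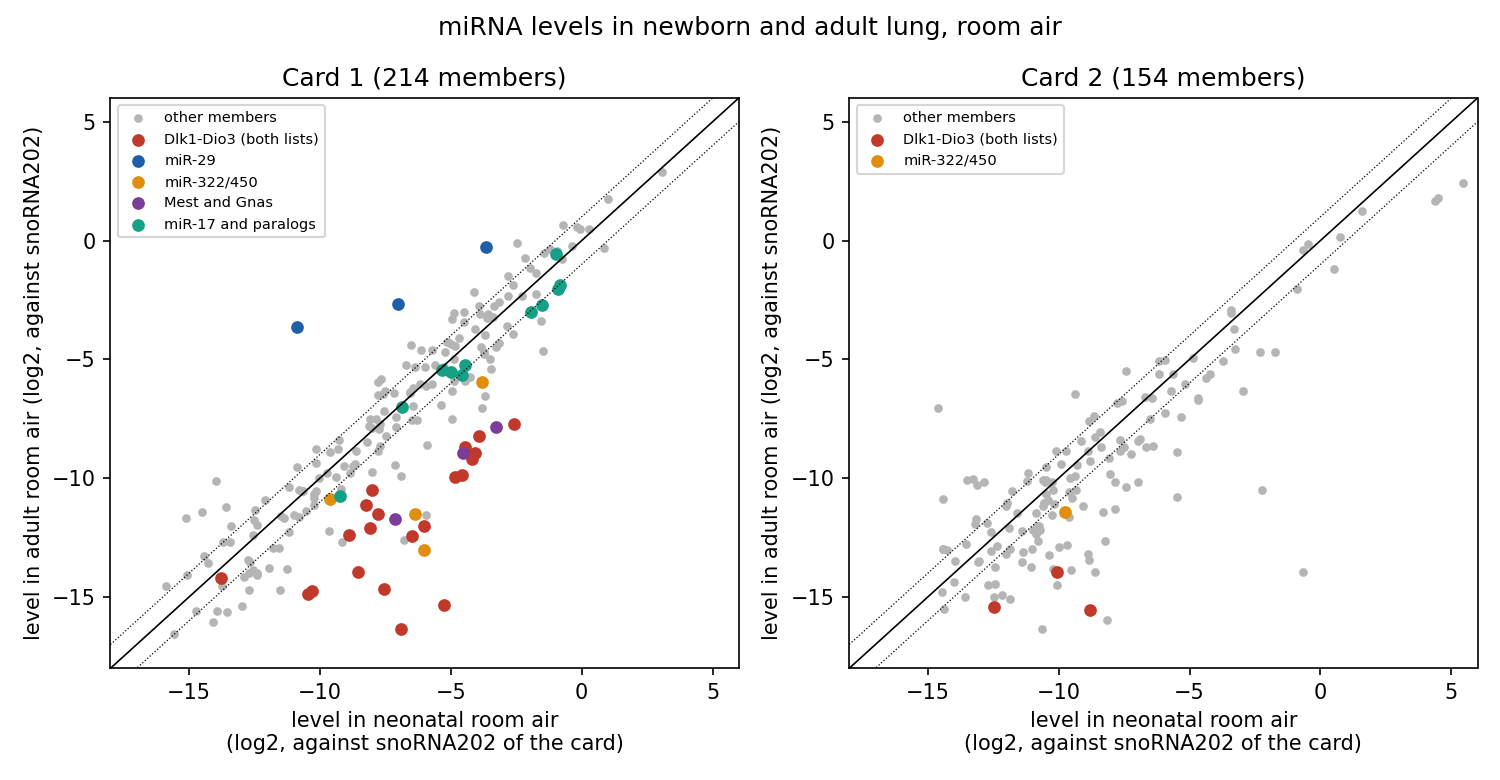
Level of each of the 368 miRNAs in neonatal room air (x axis) and adult room air (y axis), in log2 units against the snoRNA202 of the card, 1 panel per card; the solid line marks equal levels and dotted lines 2-fold. The miR-29 points lie above the lines, and the Dlk1-Dio3 points lie below the equal line, all but miR-381 by over 2-fold.

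The most abundant miRNAs of newborn and adult lung were largely shared. Of the 15 highest levels in each library, 12 were common to both. On card 1, 8 of the 10 earliest assays and 14 of the 20 earliest were common, and on card 2, 9 of 10 and 16 of 20. The median rank change was 16 places among 214 on card 1 and 13 places among 154 on card 2. Ranks were less alike on card 2 (Spearman's rho 0.738 over its assays) than on card 1 (0.859), as descriptions across assays of the same libraries. Assays amplify with different efficiency, so a rank orders Ct and only roughly orders molecules.

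miR-126-3p, from an intron of the endothelial gene Egfl7, ranked 1 on card 1 at both ages, with levels of 3.07 in the neonate and 2.89 in the adult. Its partner arm miR-126-5p had levels of -0.19 and 0.56. Neither arm differed by 2-fold. miR-24, of the miR-23/27/24 clusters, ranked 2 at both ages with levels of 1.00 and 1.76. The miR-30 members miR-30c and miR-30b, abundant in many epithelia, ranked 4 and 5 in the neonate and 5 and 6 in the adult, with differences of 0.21 and 0.57. miR-191, from an intron of Dalrd3, ranked 7 and 8, with a difference of 0.15. These places at the head of card 1 were nearly the same in both libraries.

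Some abundant miRNAs did change place. miR-16, which targets cell cycle genes, ranked 3 in the neonate and 10 in the adult, with levels of 0.86 and -0.31. miR-146a, induced by NF-kB and acting back on its signalling, ranked 8 and 3, with levels of -0.73 and 0.64. miR-222, one of an X-linked pair with miR-221, ranked 25 and 7, with levels of -2.48 and -0.12. miR-29a had the longest climb among those reaching the first 10 places, from rank 42 to 9. In the other direction, miR-449a, a miRNA of multiciliated cells, went from rank 16 to 58, and miR-218, whose Slit host genes guide vessels and axons, from 18 to 40. miR-106a and miR-17, of the cell cycle promoting miR-17 group, went from ranks 10 and 11 to 21 and 22.

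**Figure D2:**
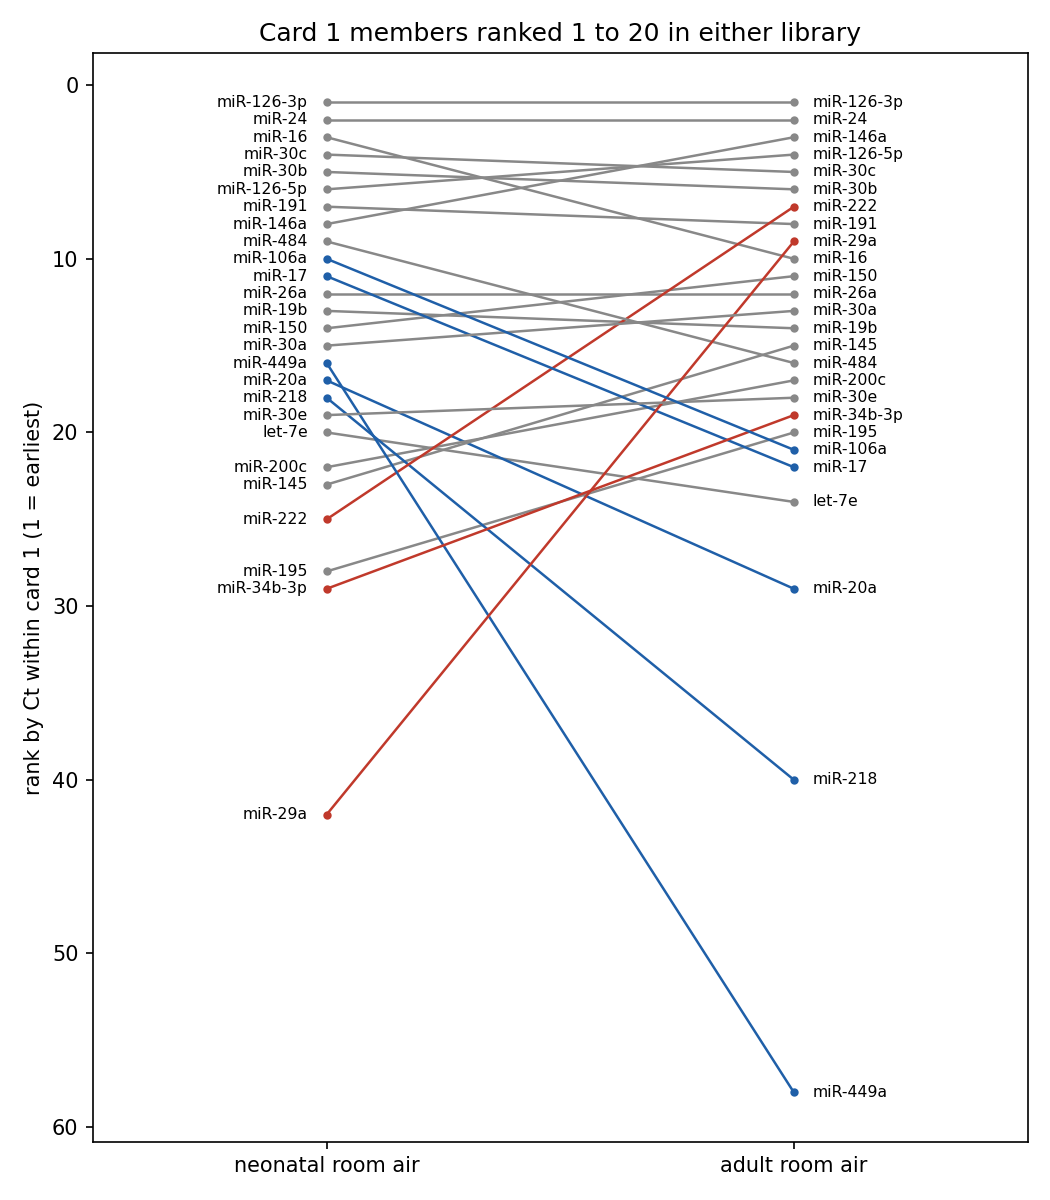
Rank by Ct within card 1 (1 is the earliest Ct) for the miRNAs ranked 1 to 20 in neonatal or adult room air; red lines gained and blue lines lost at least 10 places. miR-126-3p and miR-24 keep ranks 1 and 2, miR-29a goes from 42 to 9 and miR-449a from 16 to 58.

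Card 2 holds many star forms (passenger strands). Its first 3 places at both ages were miR-1937b, miR-1937c and miR-2134, with differences of -3.02, -2.73 and -2.73. miR-720 ranked 6 and 8 with a difference of -1.71. The entries miR-1937 and miR-720 were later withdrawn from the miRNA catalogue as likely tRNA fragments, so these 3 assays may not report miRNAs. The rat-named assay for the myeloid miR-223 ranked 4 at both ages (1.57 in the neonate and 1.25 in the adult), and the rat-named assay for the epithelial miR-200c ranked 5 (0.74 and 0.16). The passenger strands miR-30a* and miR-30e* ranked 7 and 8 in the neonate and 6 and 7 in the adult, with differences of 0.36 and 0.26, near those of their partners miR-30a (0.89) and miR-30e (0.38).

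The large differences were spread over all abundances. Among the 54 miRNAs of card 1 with the earliest mean Ct, 11 were higher and 13 lower, with a median of 0.38, and 3 differed by at least 4-fold. In the next groups of 53, 53 and 54 miRNAs the 4-fold differences numbered 15, 16 and 16, and the medians were -0.21, -0.62 and -0.88. In 4 such groups of card 2 the 4-fold differences numbered 11 of 39, 10 of 38, 14 of 38 and 13 of 39. On card 1 the most abundant group thus held the fewest 4-fold differences.

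All 3 miR-29 guides were more abundant in the adult library. miR-29a had levels of -3.64 in the neonate and -0.26 in the adult, a difference of 3.38. miR-29c had levels of -7.02 and -2.66, a difference of 4.36. miR-29b had levels of -10.87 and -3.65, a difference of 7.22. The passenger strands, measured on card 2, were unlike one another: miR-29a* was at 3.42, miR-29c* at 2.83 and miR-29b* at -0.47. In ranks, miR-29c went from 111 to 28 and miR-29b from 172 to 43 of 214. The miR-29 list had a median of 4.36 with 3 of 3 higher, against 15.2% of all the miRNAs. The members share a seed and almost the whole guide sequence, and how far the assays cross-detect one another was not tested.

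The adult hyperoxia library set against the neonatal hyperoxia library gave 2.81 for miR-29a, 3.94 for miR-29c and 3.76 for miR-29b. Among the passenger strands it gave 3.32 for miR-29a*, 0.74 for miR-29c* and -0.25 for miR-29b*, so miR-29c* was within 2-fold there. miR-29b had levels of -8.00 in adult hyperoxia and -11.76 in neonatal hyperoxia, so its difference in room air rests in part on 1 high adult value. The adult libraries were above the neonatal libraries for all 3 guides.

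**Figure D3:**
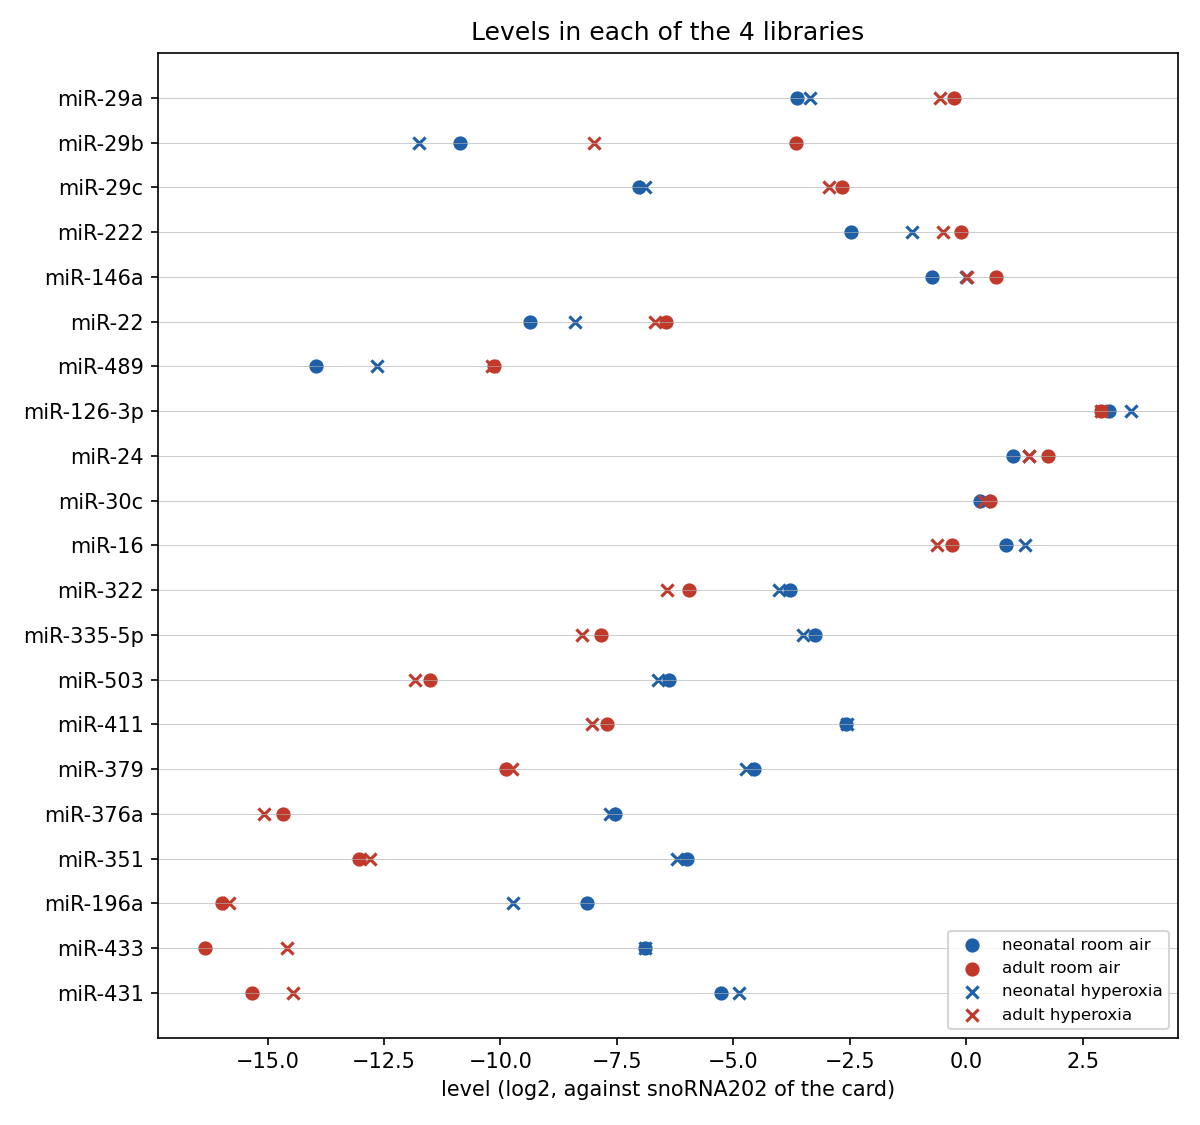
Levels (log2, against the snoRNA202 of the card) of 21 miRNAs in each library; filled circles are room air, crosses are 95% oxygen, blue is neonatal and red is adult. Both adult libraries lie above both neonatal libraries for the miR-29 members, miR-222, miR-22 and miR-489, and below them from miR-16 down to miR-431.

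Other miRNAs were higher in the adult library across the range of abundance. miR-22, from the noncoding host Mir22hg, had levels of -9.36 and -6.45 and went from rank 73 to 28 of 154 on card 2. Its passenger strand miR-22* was higher by 2.69. miR-489, from an intron of the calcitonin receptor gene Calcr, had levels of -13.96 and -10.13, and the rat-named assay for it gave 3.22. miR-21, from the end of Vmp1 and induced in inflammation and repair, had levels of -4.97 and -3.31, and its passenger strand miR-21* was higher by 3.56. miR-7a, known from neuroendocrine cells, was higher by 2.37 and miR-7b, which has the same seed, by 1.13. The X-linked miR-547 was higher by 3.06 (levels -14.50 and -11.44).

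miR-1904 had the highest difference of all, 7.54, with Ct 29.9 in the neonate and 20.7 in the adult, just inside the limit. In hyperoxia its level was -19.39 in the neonate and -6.49 in the adult. miR-338-3p, from an intron of the kinase gene Aatk, was higher by 3.42 (levels -15.11 and -11.68). The opposite arm miR-338-5p was lower by the same size, at -3.43. The other libraries placed miR-338-5p at -9.44 in neonatal and -8.89 in adult hyperoxia, so the neonatal room air level of -5.48 stood apart.

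The noncoding hosts Mir99ahg and Mir100hg carry miR-99a with let-7c and miR-100 with miR-125b. Of their 4 listed miRNAs, 3 were higher and 0 lower, with a median of 1.65. miR-100 had the largest difference, 2.15, and let-7c the smallest, 0.56. In the list of inflammation-induced miRNAs 3 of 4 measured members were higher (median 1.51), against 15.2% of all the miRNAs, with miR-146b at 1.94 and miR-132 at 0.90. miR-212, the cluster partner of miR-132, is not in that list and was at -0.61. The rat-named assay for miR-146b gave 0.35, within 2-fold. In the hyperoxia pair miR-146a was at 0.03, miR-146b at 0.32 and miR-132 at -0.77. Of these 3, 0 reached 2-fold between the hyperoxia libraries. miR-155, another member of that list, did not cross in neonatal room air (listed at 40) and had a Ct of 19.6 in adult room air. Its Ct was 19.7 in neonatal hyperoxia and 18.9 in adult hyperoxia, so neonatal room air was the 1 library without it.

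The largest group of lower levels lay in the imprinted Dlk1-Dio3 region of chromosome 12, whose miRNAs are expressed from the maternal chromosome and are known for fetal and neonatal growth. Its proximal miRNAs lie antisense to Rtl1 and nearby. Of 18 such assays on the cards 10 were measured, and 10 of 10 were lower, with a median of -4.35. The distal miRNAs, from miR-379 to miR-410 in the noncoding transcript Mirg, had 14 of 38 measured, 13 of 14 lower and a median of -5.06. The share over all the miRNAs was 41.6%. The lists hold guide strands mostly, and only members detected at both ages enter these counts, so miRNAs lost below the limit in the adult are not in them.

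In the proximal group, miR-431 had levels of -5.27 in the neonate and -15.34 in the adult, a difference of -10.06. miR-433 had levels of -6.89 and -16.35, a difference of -9.46. These were the 2 lowest differences on card 1. miR-127, antisense to Rtl1, had levels of -3.92 and -8.22, and miR-136, also antisense to Rtl1, had -4.85 and -9.94. The arms miR-434-3p and miR-434-5p differed by -4.24 and -4.43, and miR-337-3p and miR-337-5p by -4.40 and -2.89. miR-673-5p and miR-673-3p differed by -3.87 and -2.95. miR-673-5p had a level of -4.41 in neonatal hyperoxia against -10.08 in neonatal room air.

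In the distal group, miR-411 was the most abundant, with levels of -2.58 in the neonate and -7.70 in the adult. It went from rank 26 to 104 of 214. miR-379, at the start of the cluster, had levels of -4.56 and -9.87. The miR-376 members miR-376a and miR-376c differed by -7.13 and -4.85. miR-541, miR-382, miR-410 and miR-380-5p differed by -6.72, -6.01, -5.95 and -5.38. miR-409-3p, miR-134, miR-667 and miR-495 lay between -4.99 and -3.51, and miR-494 at -2.49, which turned to 0.16 against U6. miR-381 was the exception at -0.40, with low levels of -13.78 and -14.18, and the rat-named assay for it gave -0.58.

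The hyperoxia pair gave differences of similar size for miR-431 (-9.56), miR-411 (-5.48), miR-379 (-5.02) and miR-376a (-7.44). For miR-433 the difference was smaller there, -7.67 against -9.46 in room air, where its adult Ct of 29.8 was near the limit. For each of these the 2 adult libraries lay below the 2 neonatal libraries. Against U6, which shifted all the miRNAs upwards, the medians of the proximal and distal lists were -1.81 and -2.41. Chromosome 12 as a whole had 33 assays assigned to 1 place, of which 29 were lower and 0 higher (median -4.24). By gene position, 17 and 10 of the 33 lay in the distal and proximal Dlk1-Dio3 groups, with 16 and 10 lower. The chromosome count is thus mostly a recount of Dlk1-Dio3 assays. Chromosome X had 28, with 14 lower and 3 higher (median -0.92), and the other chromosomes 210, with 69 lower and 40 higher (median -0.27).

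The imprinted loci Mest and Gnas had lower adult levels too. miR-335-5p and miR-335-3p, the arms of the hairpin inside the paternally expressed Mest, had levels of -3.26 and -4.53 in the neonate and -7.83 and -8.95 in the adult. Their differences were -4.57 and -4.42. miR-296-5p, of the Gnas locus, had levels of -7.13 and -11.70, a difference of -4.58. It was the 1 measured member of 3 assays for that locus, and of the others miR-298 crossed in the neonate (Ct 25.7) with a Ct of 34.3 in the adult. In the Sfmbt2 intron, a rodent repeat cluster in another imprinted gene, 5 of 9 listed members were lower and 0 higher (median -1.57), against 41.6% lower and 15.2% higher over all the miRNAs, from -2.13 for miR-669m to 0.71 for miR-467e; against U6 this median turned to 1.08. With the unlisted miR-467a* (1.36), miR-467b* (1.25) and miR-466g (0.75), 11 assays of this position cluster had 2 higher and 4 lower (median -0.81), so its members differed in both directions.

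The X-linked cluster of miR-322 and miR-450 restrains the cell cycle and muscle growth. All 5 measured members of its 8 assays were lower, against 41.6% of all the miRNAs. Their median was -2.17, or -0.53 against U6, where miR-322 (0.48) and miR-450a-5p (1.38) turned. Of the other assays, miR-542-3p and miR-542-5p lay in the left-out row and miR-450b-5p was over the Ct limit. miR-351 had levels of -6.00 and -13.04, and the rat-named assay for miR-351 gave -5.62. miR-503 had levels of -6.37 and -11.52, and miR-322 had levels of -3.79 and -5.96. miR-450b-3p and miR-450a-5p differed by -1.66 and -1.27. The members of this cluster thus differed unequally. The hyperoxia pair gave -6.59 for miR-351, -5.22 for miR-503 and -2.42 for miR-322.

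Mesenchymal miRNAs of the Dnm3os transcript, a noncoding host needed for skeletal growth, differed unequally. miR-214 had levels of -3.68 and -6.55 (difference -2.86), miR-199a-5p had -12.96 and -15.38 (-2.42), and miR-199a-3p had -2.84 and -3.58 (-0.73). The rat-named assay for miR-214 gave -1.42. Against U6 the median of these 3 was 0.23, so this group turned direction with the reference. In the Evl intron miR-342-5p and miR-342-3p differed by -3.20 and -1.19, and their median against U6 was 0.45.

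Among Hox cluster miRNAs the members differed in opposite directions. miR-196a, which lies among Hox genes and acts in body patterning, had levels of -8.14 in the neonate and -15.98 in the adult, a difference of -7.84. It went from rank 55 to 153 of 154. The hyperoxia pair gave -6.10. miR-10a and miR-10b, which lie near other Hox genes, were higher in the adult at 1.05 and 1.37. The rat-named assay for miR-10b gave -1.80 at late Ct values, so its direction differed between assays.

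Families tied to cell division differed to a smaller degree and unequally, and counts are to be read against the 41.6% lower and 15.2% higher over all the miRNAs. Against U6 the list medians turned to 1.55 for Mir17hg, 1.56 for its X-linked paralog, 1.48 for miR-15 with miR-16 and 0.75 for miR-130 with miR-301. Of 6 members of Mir17hg, the miR-17 host, 4 were lower and 0 higher (median -1.098), from -1.52 for miR-18a to 0.43 for miR-19b. The paralog in Mcm7, with miR-106b, miR-93 and miR-25, had 0 of 3 beyond 2-fold (median -0.13). The X-linked paralog had 2 of 2 lower, with miR-106a at -1.08 and miR-20b at -1.103. In miR-15/16, 2 of 3 were lower (miR-16 at -1.17, miR-15b at -1.46 and miR-15a at 0.40). The related pair miR-195 and miR-497 was at 0.75 and 1.82. The miR-130 and miR-301 family, known from lung vessels, had 4 of 4 lower (median -1.90), from -2.58 for miR-301a to -1.05 for miR-130a.

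Let-7, whose guides accumulate as tissues mature, showed little difference against snoRNA202. Of 9 members 0 were higher and 1 lower, with a median of 0.15. miR-98 was the lowest at -1.14 and let-7g the highest at 0.81. All 9 lie on card 1, where U6 was at -2.65, so against U6 each difference would be higher by that size. In the hyperoxia pair 4 of the 9 were lower and 0 higher (median -0.98), against 46.7% lower over that pair. The miR-30 family had 1 of 5 higher, miR-30d at 1.51 (median 0.58). The epithelial miR-200 family had 0 higher and 1 of 5 lower, miR-429 at -1.16 (median 0.50). The rat-named assays went the other way from the mouse-named ones: miR-200b at -1.14 against 0.59, and miR-200c at -0.57 against 0.84. In the wider list of airway and alveolar epithelium 2 of 14 were higher and 5 lower (median 0.37), near the 15.2% and 41.6% over all the miRNAs.

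The miR-34 and miR-449 family of multiciliated cells held members in both directions. The assays miR-34a, miR-34c and miR-34b-3p were higher, with miR-34b-3p at 1.32 (levels -2.80 and -1.48), while miR-449a, from an intron of Cdc20b, was lower at -3.17 (levels -1.48 and -4.65). In the list 3 of 6 were higher and 2 lower, against 15.2% and 41.6% over all the miRNAs. The other arms miR-34b-5p and miR-34c* were within 2-fold, at 0.93 and -0.39. The hyperoxia pair gave 0.11 for miR-34a, 0.06 for miR-34b-3p and 0.87 for miR-34c, and -3.61 for miR-449a. miR-449b was at Ct 17.8 in neonatal room air and did not cross in adult room air, but its Ct in neonatal hyperoxia was 38.9. The neonatal room air value of miR-449b therefore had no match in the other neonatal library.

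Cell type lists differed in smaller steps, and counts are to be read against the 41.6% lower and 15.2% higher over all the miRNAs. Of the 4 endothelial assays measured, 0 were higher and 1 was lower, miR-218 at -1.81 (median -0.50). Of 5 leukocyte assays, 2 were higher and 1 lower (median 0.87), with miR-142-5p at 1.18 and miR-342-3p at -1.19. The smooth muscle pair miR-143 and miR-145 was at 0.50 and 1.41. Of 3 erythroid assays, 2 were lower and 0 higher (median -1.03), with miR-451 at 0.12 and miR-144 at -1.16; centring each library on its mean turned that median to 0.31. Of 5 striated muscle assays, 1 was lower, miR-206 at -3.13, and miR-133a was at 0.84. Of 3 neuronal assays, 1 was lower, miR-137 at -2.09, and miR-9 was at 0.44. What part blood, muscle or nerve RNA has in the differences above was not tested.

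**Figure D4:**
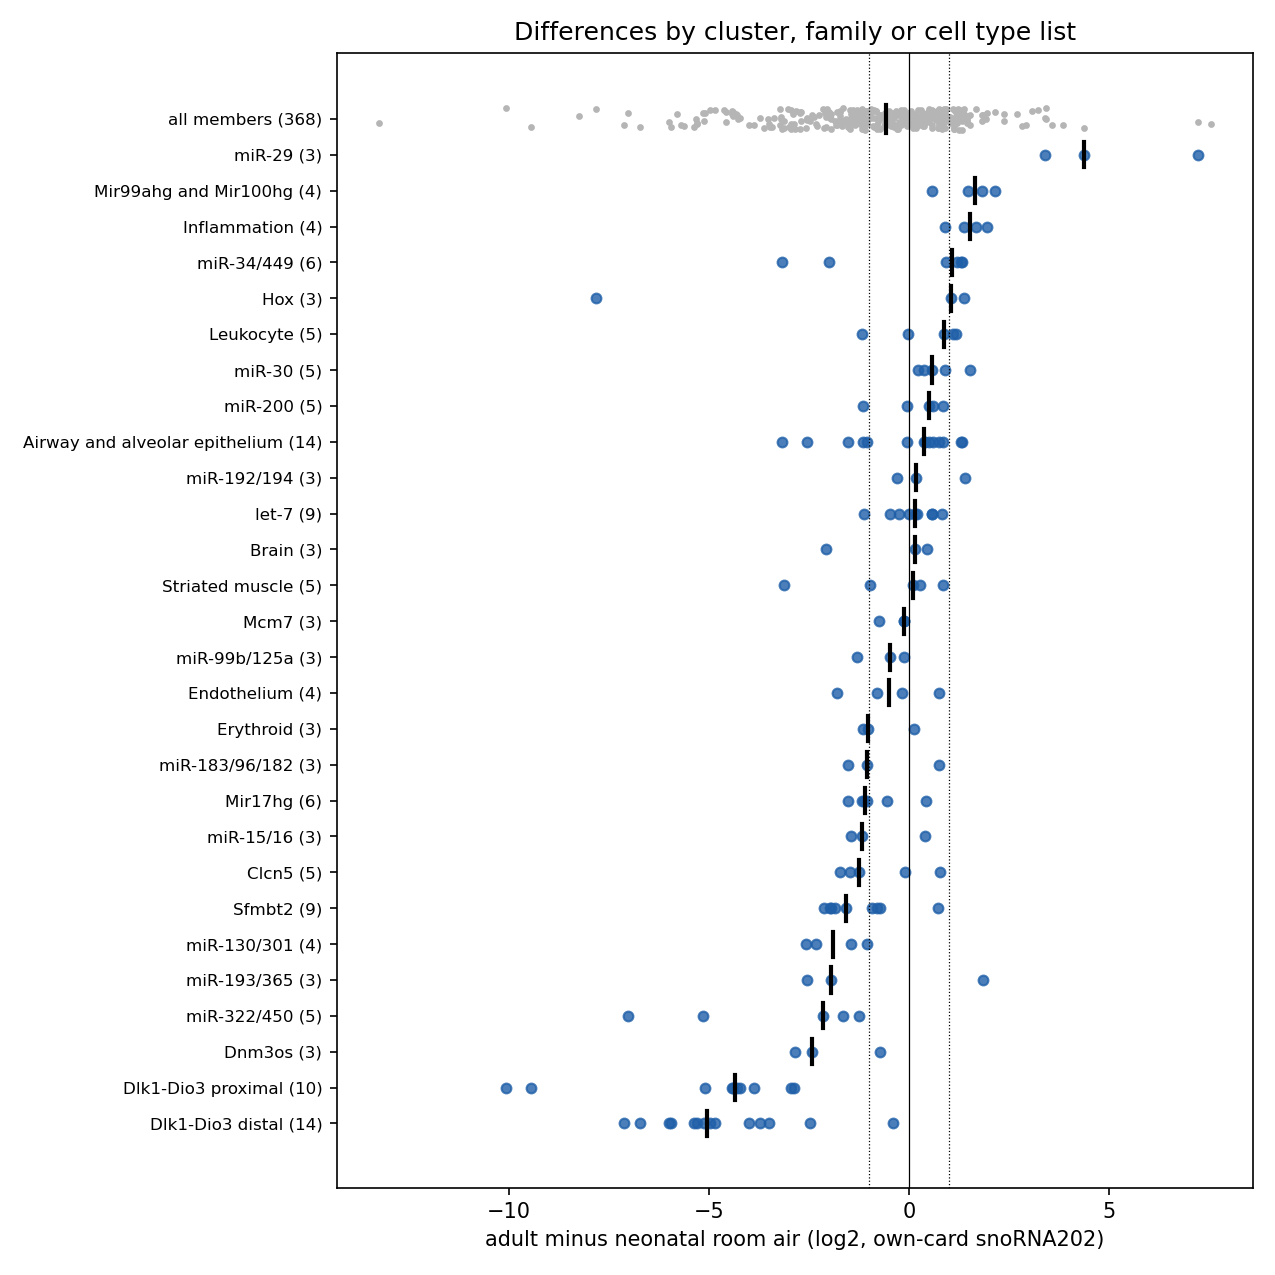
Adult minus neonatal difference in room air (log2, own-card snoRNA202) for each member of every list with at least 3 measured miRNAs, with the number in brackets; black bars are medians, dotted lines mark 2-fold, and grey points are all 368 miRNAs. The miR-29 list lies highest (median 4.36), and the Dlk1-Dio3 lists lie lowest (-4.35 and -5.06).

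Short lists gave further loci, again to be read against the 41.6% lower and 15.2% higher over all the miRNAs. The pair miR-23b and miR-27b was higher in both (1.13 and 1.12), while miR-27a of the other locus was at 0.63. miR-222 was at 2.36 and its cluster partner miR-221 at 0.75. In the hyperoxia pair miR-222 was at 0.665 and miR-221 at -0.23, both within 2-fold. miR-140, from an intron of Wwp2 and known from cartilage, was at 1.16. miR-365 was at 1.84 while miR-193 and miR-193b, listed with it, were at -2.55 and -1.97. In the Ftx transcript of the X inactivation centre, 2 of 2 were lower, miR-374 at -1.32 and miR-421 at -2.05. The Pank pair miR-103 and miR-107 was at 0.58 and -0.90. miR-292-3p and miR-295, of the embryonic clusters, were at -1.38 and -1.31, the 2 measured of 14 assays.

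Positions came from the RefSeq gene table (GRCm38.p6), with which 303 of 329 mouse-named miRNAs were matched (1 more mouse-named assay, annotated with several miRNAs, was not looked up), 271 of them to 1 place. miRNA genes at most 10 kb apart formed 27 clusters of 2 or more measured miRNA genes with 114 assays. In 15 of the 27 all members had the same sign, and the median spread within a cluster was 1.70. The cluster at Mir206 on chromosome 1 spread over 3.40, with miR-206 at -3.13 and miR-133b at 0.27. Within a protein-coding host on the same strand, 18 of 103 miRNAs were higher and 34 lower (median -0.44), near the 15.2% and 41.6% over all 368. In a noncoding host on the same strand, 6 of 31 were higher and 18 lower (median -1.31). With no host gene annotated there, 14 of 88 were higher and 32 lower (median -0.33). This last group holds miRNAs placed in noncoding hosts above, such as miR-379 (Mirg), miR-17 (Mir17hg) and miR-99a (Mir99ahg). The split by host thus depends on which hosts that gene table annotates.

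Both arms were measured for 55 hairpins. They had the same sign in 40, were both at least 2-fold higher in 6 and both lower in 13. Over all the miRNAs 15.2% were higher and 41.6% lower, and how often unrelated assays share a sign was not tested. The median gap between arms was 0.94, and 40 of the 55 pairs were on different cards. Only miR-338 had its arms beyond 2-fold in opposite directions with both sizes over 3 units, and miR-27b with miR-27b* was the other opposite pair (1.12 and -1.29). miR-503 and miR-503* were both lower, at -5.14 and -1.97.

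Among the miRNAs with a matched sequence, seeds grouped some differences and split others. Counts are to be read against the 41.6% lower and 15.2% higher over all the miRNAs. All 3 guides with the seed AGCACCA were higher (miR-29). Of 6 with AAAGUGC, the miR-17 seed, 4 were lower and 0 higher. The 6 with AGCAGCA ranged from -2.17 for miR-322 to 1.82 for miR-497. The 2 matched guides with CCCUGAG shown above, miR-125b-5p and miR-351, were at 1.82 and -7.03. Of the 3 matched guides with GGCAGUG, miR-34a was at 1.195 and miR-449a and miR-449c were at -3.17 and -2.02. Sequences were matched for 123 of 139 names, so the seed groups can lack members. miR-125a-5p (-1.31), miR-34c (1.30) and miR-34b-5p (0.93) had no matched sequence and were not placed by seed.

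For 23 miRNAs a mouse-named and a rat-named assay were both measured. Their differences had the same sign in 17 pairs and lay within 1 log2 unit in 12, with a median gap of 0.91 and an SD of 0.91 for a single assay. Of the pairs 14 were on different cards. In 6 pairs both assays were beyond 2-fold the same way, and in 1, miR-10b, they were beyond 2-fold in opposite directions. The shares over all the miRNAs were 15.2% higher and 41.6% lower. A 2-fold difference in a single assay was thus about as large as the spread between assays of 1 miRNA, while those of miR-29 or the Dlk1-Dio3 miRNAs were several times larger.

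The hyperoxia libraries shared no library with the room air pair. In that pair 379 assays met the same limit, of which 34 (8.97%) were higher in the adult and 177 (46.7%) lower, with a median of -0.89. In both pairs 358 miRNAs were measured. Of 53 higher in room air, 25 were also higher in hyperoxia and 0 lower. Of 149 lower in room air, 138 were also lower and 0 higher. Of 15 beyond 4-fold higher in room air, 13 were again beyond 2-fold and 8 beyond 4-fold. Of 78 beyond 4-fold lower, 76 were again beyond 2-fold and 69 beyond 4-fold. Over the 379, 2.9% were beyond 4-fold higher and 26.1% lower. Across the 358 assays Pearson's r was 0.889 and Spearman's rho 0.898, as a description over assays of 4 libraries, all set against snoRNA202.

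For 10 of the 358 the pairs differed by over 2 log2 units. miR-1896 had the lowest difference of all in room air, -13.26, and -2.17 in hyperoxia. Its Ct was 15.99 in neonatal room air and lay between 25.9 and 27.6 in the other libraries, so this value rests on 1 well. The rat-named miR-632 was low in both pairs, at -8.25 and -10.34. miR-191 was left out of the hyperoxia pair because it did not cross in neonatal hyperoxia, although it ranked 7 and 8 in room air. miR-200c was at 0.84 in room air and -1.63 in hyperoxia, miR-706 at 0.49 and -2.32, and miR-423-3p at 0.12 and -3.85.

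Of the assays at or below Ct 30 in 1 library, 13 of the 34 neonatal ones did not cross in the adult, and 5 of the 25 adult ones did not cross in the neonate. Several neonatal ones belong to the Dlk1-Dio3 region: miR-370 had Ct 22.9 and 33.3, miR-323-3p 24.5 and 34.1, and miR-487b 24.1 and 30.3. miR-330 was listed at 40 in the neonate and had Ct 19.1 in the adult, but 39.1 and 36.8 in the hyperoxia libraries. Just inside the limit were miR-1904 (29.90), rat-named miR-190b (29.95), and miR-208b (29.99), with miR-1193 at the limit itself. Just outside were miR-1306 (30.07), miR-671-5p (30.12), rat-named miR-743a (30.15) and miR-1928 (30.18). miR-1904 is the only one of these 8 with a difference named above.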

How the data were processed

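Total RNA was reverse transcribed with Megaplex primers, preamplified and measured by TaqMan assays, per the labels' protocols. The authors deposited Ct and Ct minus snoRNA202 (delta Ct), both on a log2 scale per the file headers; the cycler software is not given in the sources used here. Wells that did not cross hold 40. In the adult room air library, the deposited delta Ct of 385 wells was not Ct minus the snoRNA202 of their own card. Ct was therefore set here against the own card's snoRNA202. Samples were grouped by title. Python 3.11.15, pandas 2.3.3 and numpy 2.4.6 were used, and the code was tested on simulated data.

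Members and lists were chosen with earlier results of these data known. Counts are at 2-fold and 4-fold, with no test. Other references, Ct limits of 25, 28 and 35, and other treatments of row L were tried. Named are the 15 highest levels per library, the 10 highest and 10 lowest differences, the 5 largest rank gains and losses per card, all members of lists with a median of at least 2 log2 units or holding a top 15 miRNA, at most 2 of each other list, and assays next to the limit; a few others were chosen after their values were seen. Depth in reads does not exist for PCR, and Ct stands in its place. All other assays enter only the counts.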

Additional observations from a re-analysis of the deposited data

Results flagged for a closer look

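In the left-out row L of card 1, miR-511 had a Ct of 11.1 in adult room air, against 31.5 in neonatal room air, 26.7 in neonatal hyperoxia and 26.2 in adult hyperoxia. It drew attention because this well, outside the comparison, was earlier than all but 1 assay of card 1 in that library, while the plant negative control in the same row did not cross. In the same row and library, miR-532-3p, miR-532-5p and miR-539 were listed at 40, although their Ct was between 18.1 and 23.6 in the other libraries. No miRNA was beyond 2-fold in opposite directions in the room air and hyperoxia pairs.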

How the results depend on the processing

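No paired analysis was possible because each group holds 1 library. The reference RNA moved the results most. With U6 as reference, 215 miRNAs were at least 2-fold higher and 60 lower, and the median over all members was 1.49. The list medians were then 7.01 for miR-29, -1.81 and -2.41 for the proximal and distal Dlk1-Dio3 lists, -0.53 for the miR-322 and miR-450 cluster, and 0.23 for Dnm3os, the last turned in direction. With U6 the medians of these lists also turned: Mir17hg 1.55, its X-linked paralog 1.56, miR-15 with miR-16 1.48, miR-183 with miR-96 and miR-182 1.59, erythroid 1.62, miR-130 with miR-301 0.75, Sfmbt2 1.08, Clcn5 1.40, embryonic 1.31, Evl 0.45, and miR-193 with miR-365 0.68. Single named miRNAs turned with it were miR-16 (1.48), miR-15b (1.19), miR-322 (0.48), miR-450a-5p (1.38), miR-199a-5p (0.23), miR-218 (0.83), miR-494 (0.16), miR-342-3p (1.46), miR-18a (1.13), miR-106a (1.57), miR-17 (1.51), miR-20b (1.54), miR-98 (1.51), miR-125a-5p (1.34), miR-182 (1.12), miR-429 (1.49), miR-130a (1.60), miR-301a (0.07), miR-188-5p (0.92), miR-295 (1.34), miR-292-3p (1.27), miR-193 (0.094), miR-193b (0.68) and miR-137 (0.56). Only list medians and named miRNAs at least 2-fold lower against snoRNA202 are given here. Because U6 was at -2.65 on card 1, every negative difference on that card above this value turns, such as miR-106b at -0.76.

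With snoRNA135, 113 miRNAs were higher, and the medians were 5.22 for miR-29, -1.31 for miR-322 with miR-450, -1.57 for Dnm3os, and -3.54 and -4.20 for the Dlk1-Dio3 lists. With the Ct of each card centred on its median, 134 were higher and 85 lower, the median was 0.36, and the same lists gave 5.38, -1.15, -1.40, -3.34 and -4.04. With each library centred on its mean, 121 were higher and 87 lower, the median was 0.29, and the erythroid list (0.31), miR-144 (0.31), miR-374 (0.15), miR-27b* (0.18) and the rat-named miR-214 (0.052) and miR-200b (0.33) turned. Again only list medians and named miRNAs at least 2-fold lower against snoRNA202 are given. A Ct limit of 25 left 30 higher and 82 lower and a median rank change of 7 on card 2; a limit of 35 turned the Hox list to -0.12. The deposited delta Ct, the mean of snoRNA202 and snoRNA135, a limit of 28 and both other treatments of row L kept every count within 1.5 times and every list median given here in its direction. Precision at late Ct was not measured.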

Other observations

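Some pairs of assays hold identical Ct values. miR-1191 and miR-1199, separate wells of card 2, had the same Ct in all 4 libraries (29.7 in neonatal room air and 26.6 in adult room air), so their differences of 1.44 count the same value 2 times among the 56 higher miRNAs. miR-345-3p and miR-345-5p had the same Ct in both neonatal libraries (24.2 in room air) and separate values in the adult libraries (22.8 and 24.0 in room air). The rat-named miR-673 and miR-742 shared a Ct of 21.5 (neonatal room air) and 22.1 (neonatal hyperoxia), and neither crossed in the adult libraries.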
